A study of Mus musculus with 4 samples.

Results

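The circadian clock genes described here are 10 genes chosen by name: Per1, Per2, Per3, Cry1, Cry2, Arntl, Clock, Dbp, Nr1d1 and Nr1d2. All 10 were found by symbol among the 20211 gene symbols shared by the 4 libraries. Nuclear RNA of mouse hippocampus was counted by single-nucleus sequencing, with 1 library per genotype and a kit that takes RNA and open chromatin from the same nuclei. The labels name the genotypes as wild type and 3 knockouts of MAGL (monoacylglycerol lipase, encoded by Mgll, which degrades the endocannabinoid 2-arachidonoylglycerol). These are Total/global MAGL-KO, Astrocyte specific MAGL-KO and Neuron specific MAGL-KO. The labels give no strain, age, number of animals, Cre driver or time of day of collection, and the wild-type library carries no stated allele. The question asked of the clock genes was whether the libraries differed in clock phase. With 1 library per genotype no test was possible, so genotype, animals, library and time of collection cannot be told apart. Intervals are 95% intervals from the UMI (unique molecular identifier) counts and cover counting error only.

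The libraries held 81623644 to 193307038 UMIs, with a median of 5456 to 8904 UMIs per barcode. After filters 51161 nuclei remained. The 6 neuron classes compared held 314 to 4435 nuclei in each library, and their names rest on marker genes. The library labelled total knockout also held 744 nuclei with medium spiny markers and 144 with thalamic markers, against at most 31 and 21 in any other. Female nuclei, with Xist and no Y-linked transcript, were 47.1% in wild type, 43.1% and 41.0% in the libraries labelled astrocyte and neuron knockout, and 0.0127% in that labelled total knockout, which came almost wholly from males. Mgll itself, as a log2 ratio to wild type, lay between -0.48 and 0.06 over the 6 classes in the library labelled total knockout, between -0.11 and 0.21 in that labelled astrocyte knockout and between -0.01 and 0.23 in that labelled neuron knockout. Mgll RNA was thus not lower in neurons of the library labelled neuron knockout. The sources used here do not name the deleted exons, and the kit reads transcript ends, so Mgll counts do not check the labels. The libraries are therefore named by their labels throughout.

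In mammals the clock is a feedback loop of transcription. CLOCK and ARNTL (also called BMAL1) form a dimer that binds E-box sequences and turns on the Per and Cry genes, whose proteins then block the dimer. The same dimer turns on Nr1d1 and Nr1d2 (REV-ERB alpha and beta), receptors that repress Arntl, and Dbp, a factor that acts through D-box sequences. In most mouse tissues the transcripts of the Per genes, Dbp and the Nr1d genes are high in one part of the day and Arntl in the opposite part, with Cry1 later than the Per genes. The hippocampus has such a clock, and Per1 there also responds to neuronal activity through cAMP response elements (CRE).

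The promoters of the Per genes, the Cry genes and Arntl are shown where they carry a motif of the loop, because these elements are the links of the loop; those of Clock and Nr1d2 are described only. RefSeq windows on GRCm38.p6, from 250 bases before to 50 bases after a transcription start, were found for 9 of the 10 members and in 13 windows, with no window for Per2. Capitals mark the motifs searched on both strands: the E-box CACGTG, the CRE TGACGTCA, the D-box TTATGTAA and the element AGGTCA bound by ROR and REV-ERB receptors. All sequences run 5′ to 3′ on the gene's strand.
Per1, chr11:69098699-69098998, plus strand: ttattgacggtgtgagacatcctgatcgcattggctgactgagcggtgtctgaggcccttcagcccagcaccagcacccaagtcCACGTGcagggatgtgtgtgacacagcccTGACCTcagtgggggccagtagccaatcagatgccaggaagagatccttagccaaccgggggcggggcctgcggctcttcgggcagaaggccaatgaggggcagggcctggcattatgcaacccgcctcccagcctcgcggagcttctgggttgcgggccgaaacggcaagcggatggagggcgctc
Per3, chr4:151044616-151044915, minus strand: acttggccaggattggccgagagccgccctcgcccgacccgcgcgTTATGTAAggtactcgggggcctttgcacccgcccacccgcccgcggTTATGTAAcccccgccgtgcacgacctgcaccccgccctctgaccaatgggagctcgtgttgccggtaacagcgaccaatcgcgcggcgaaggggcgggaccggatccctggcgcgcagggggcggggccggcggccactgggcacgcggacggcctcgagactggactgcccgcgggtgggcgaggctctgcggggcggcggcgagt
Cry1, chr10:85185005-85185304, minus strand: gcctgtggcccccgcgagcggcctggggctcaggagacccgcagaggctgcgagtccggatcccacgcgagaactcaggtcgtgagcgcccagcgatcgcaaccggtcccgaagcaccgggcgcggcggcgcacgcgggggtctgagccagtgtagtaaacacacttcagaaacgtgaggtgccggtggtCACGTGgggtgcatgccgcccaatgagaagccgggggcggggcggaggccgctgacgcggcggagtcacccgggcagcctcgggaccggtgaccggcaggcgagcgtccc
Arntl, chr7:113207261-113207560, plus strand: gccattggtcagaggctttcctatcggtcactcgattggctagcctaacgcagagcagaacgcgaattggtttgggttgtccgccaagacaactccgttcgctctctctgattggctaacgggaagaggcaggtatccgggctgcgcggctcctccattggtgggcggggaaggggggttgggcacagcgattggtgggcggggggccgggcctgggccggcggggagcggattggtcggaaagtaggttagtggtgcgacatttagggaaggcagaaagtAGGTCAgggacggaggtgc
The Per1 window holds an E-box that begins 166 bases before the start and the AGGTCA element in reverse orientation 137 bases before it. Per3 holds 2 D-boxes, at 205 and 158 bases before the start, and Cry1 an E-box at 60 bases before it. The AGGTCA element of Arntl begins 31 bases after the start. This element was also found in 1 window of Clock and in that of Nr1d2, and 6 of the 13 windows held any of the motifs. Over all 32851 windows of the same length, 7.15% held the E-box, 16.3% the AGGTCA element, 1.79% the CRE and 0.938% the D-box. None of the members' windows held the full CRE.

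Each member had its own order of levels over neuron classes, and for most genes classes differed more than libraries did. Levels are CPM, counts scaled to an equal total of UMIs in each class and library, given as mean ± SD over the 4 libraries, which are of different genotype. Per3, the period gene whose loss alters the clock least, was highest in dentate granule neurons at 69.1 ± 4.13 CPM (n = 4) and lowest in inhibitory neurons at 13.6 ± 1.74 CPM (n = 4), and neither range met that of the next class. Arntl was highest in CA1 pyramidal neurons at 105 ± 13.5 CPM (n = 4) and lowest in inhibitory neurons at 36.1 ± 2.93 CPM (n = 4). The CA1 range for Arntl overlapped that of other excitatory neurons, while the inhibitory range stood below all the others. Within CA1 the larger cluster held 111 to 144 CPM of Arntl over the libraries and the smaller 55.0 to 82.5 CPM. The top rank thus came from the larger cluster.

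Cry1 was low in the pyramidal fields, at 4.82 ± 1.03 CPM (n = 4) in CA1 and 5.72 ± 1.25 CPM (n = 4) in CA2 and CA3, which overlapped each other and stood below 11.03 ± 1.43 CPM (n = 4) in dentate granule neurons. In the other 3 classes Cry1 averaged 16.1 to 16.7 CPM. Per2 was lowest in inhibitory neurons, at 14.4 ± 3.21 CPM (n = 4), with no overlap with dentate granule neurons at 24.6 ± 3.94 CPM (n = 4). Nr1d2 was lowest in CA2 and CA3, at 27.5 ± 0.527 CPM (n = 4), below every other class. Its ranges in dentate granule neurons and CA1 overlapped, at means of 48.4 and 45.6 CPM. Clock and Cry2 were the flattest members: the mean of the highest class was 1.30-fold that of the lowest for Clock and 1.40-fold for Cry2, against 5.06-fold for Per3 and 5.37-fold for Dbp. The order of Per1 ran from subicular or cortical neurons (29.2 ± 5.84 CPM, n = 4) to dentate granule neurons (8.90 ± 1.69 CPM, n = 4) with every neighbour in the order overlapping.

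**Figure D1:**
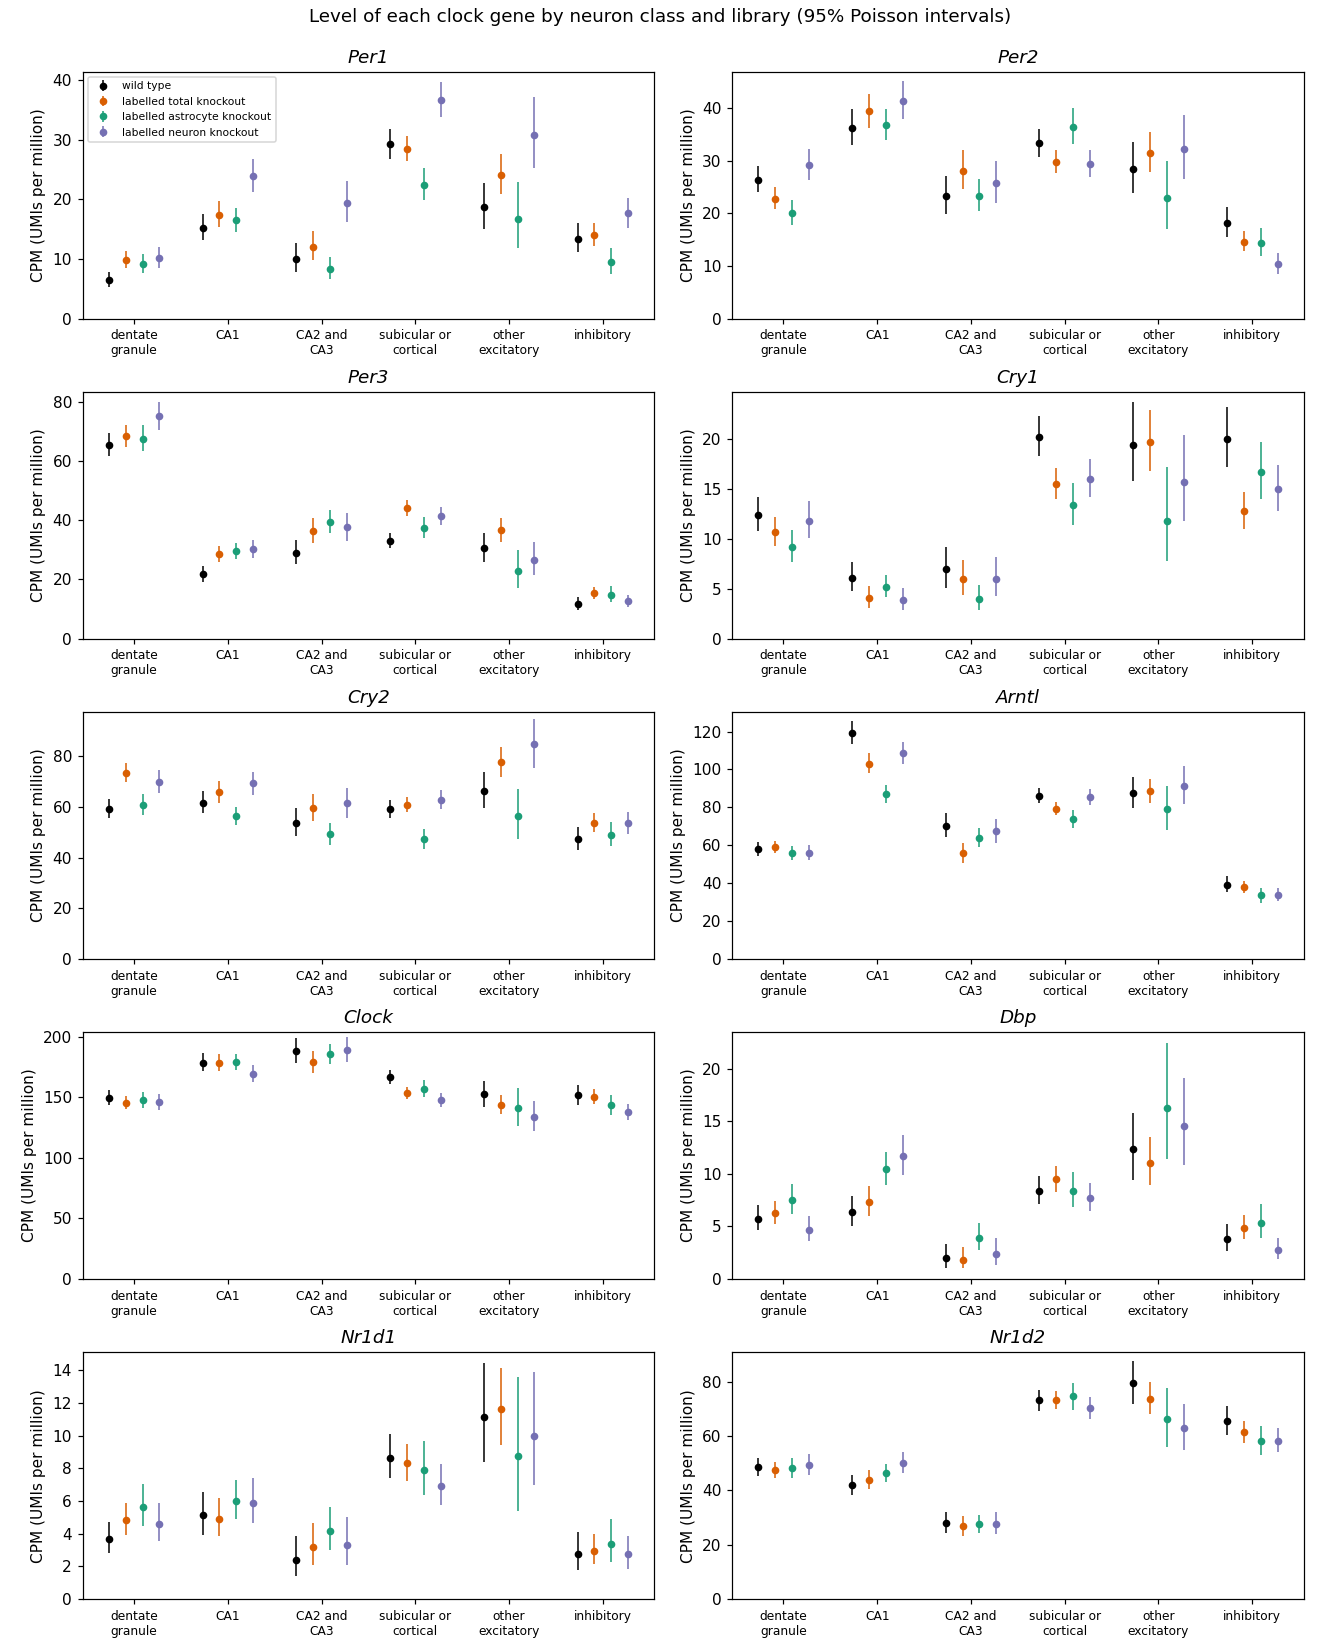
Level of each clock gene in CPM (y axis, from 0) by neuron class (x axis); each point is 1 library and its bar the 95% Poisson interval. Per3 stands highest in dentate granule neurons, where the 4 libraries sit between 65.5 and 75.0, and Clock is nearly level across libraries.

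Per1, the period gene that light, activity and hormones can turn on, was highest in the library labelled neuron knockout in all 6 classes. In CA1 it measured 15.2 CPM in wild type, 17.5 in the library labelled total knockout, 16.5 in that labelled astrocyte knockout and 23.9 in that labelled neuron knockout. In CA2 and CA3 the values in the same order were 10.1, 12.03, 8.34 and 19.5 CPM, so the library labelled neuron knockout stood apart. Its log2 ratio to wild type was 0.65 in CA1 (interval 0.38 to 0.92) and 0.95 in CA2 and CA3 (0.52 to 1.39), and all 6 intervals lay above 0. In the library labelled astrocyte knockout Per1 went in different directions between classes: dentate granule neurons had 0.50 (0.12 to 0.88), subicular or cortical neurons -0.38 (-0.60 to -0.17) and inhibitory neurons -0.50 (-0.93 to -0.08). The wild-type library was the lowest for Per1 in dentate granule neurons, at 6.45 CPM against 9.87, 9.12 and 10.1 CPM in the libraries labelled total, astrocyte and neuron knockout. These pooled values mix a deeper and a shallower cluster whose shares differed between libraries. In the shallower cluster wild type held 8.99 CPM against 10.6, 9.64 and 14.3 CPM in the same order. In the deeper it held 5.51 CPM against 9.12, 8.77 and 7.98 CPM.

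Per2, the period gene most needed for a lasting rhythm, did not follow Per1. In inhibitory neurons it measured 18.2 CPM in wild type, 14.6 in the library labelled total knockout, 14.4 in that labelled astrocyte knockout and 10.3 in that labelled neuron knockout. The last was lower than wild type by a log2 ratio of -0.82 (-1.17 to -0.47), in the same library and class in which Per1 was higher by 0.40 (0.06 to 0.73). Per2 in dentate granule neurons was lower in the library labelled astrocyte knockout (-0.39, -0.61 to -0.17), in which Per1 was higher. Per2 in CA1 stayed between 36.2 and 41.4 CPM.

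Per3 was lowest in wild type in 5 of the 6 classes, all but other excitatory neurons. In subicular or cortical neurons its log2 ratios were 0.42, 0.18 and 0.33, with all 3 intervals above 0. CA1 held 21.8 CPM in wild type and 28.6, 29.6 and 30.1 CPM in the libraries labelled total, astrocyte and neuron knockout. The log2 ratios were 0.39 (0.17 to 0.62), 0.44 (0.22 to 0.66) and 0.47 (0.24 to 0.70), so with the sexes pooled the wild-type library was the one apart in CA1. It held 18.6 CPM in female and 25.3 CPM in male nuclei there, and in male nuclei alone the ratios were 0.22, 0.10 and 0.41. These ratios share the wild-type library, and an error in that library would enter all 3 in the same direction. The Per3 ratios in dentate granule neurons, where it was highest, were 0.06, 0.05 and 0.20. In other excitatory neurons the libraries labelled astrocyte and neuron knockout had ratios of -0.42 (-0.90 to 0.04) and -0.20 (-0.59 to 0.18). Per3 overlaps Camta1 on the same strand, with 0 shared exon bases. The sources used here do not say whether introns were counted, and Camta1 ratios were not computed.

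Cry1, a strong inhibitor of the CLOCK and ARNTL dimer, was highest in wild type in 5 of the 6 classes when both sexes were pooled. In male nuclei alone it was highest there in 3 classes, and not in dentate granule, CA1 or inhibitory neurons. In CA1 the wild-type library held 7.86 CPM in female and 4.15 CPM in male nuclei, a log2 ratio of 0.92 (0.17 to 1.72), and the male nuclei of the library labelled astrocyte knockout held 6.02 CPM. In subicular or cortical neurons it measured 20.3 CPM in wild type and 15.5, 13.4 and 16.1 CPM in the libraries labelled total, astrocyte and neuron knockout. The log2 ratios there were -0.39 (-0.59 to -0.18), -0.60 (-0.87 to -0.33) and -0.34 (-0.56 to -0.11). In male nuclei alone they were -0.24, -0.32 and -0.16. The other excitatory neurons were the exception, with 19.5 CPM in wild type and 19.7 CPM in the library labelled total knockout. In inhibitory neurons the lowest library was that labelled total knockout, at 12.8 CPM against 20.1 CPM in wild type (-0.65, -0.95 to -0.35). Cry2, its paralog, was above wild type in all 6 classes in the libraries labelled total and neuron knockout, by at most 0.31 and 0.35. In that labelled astrocyte knockout the Cry2 ratio was -0.33 (-0.48 to -0.18) in subicular or cortical neurons, 47.3 CPM against 59.3 CPM in wild type. Cry2 shares 295 exon bases with D930015M05Rik on the other strand, a transcript at 2.37 to 6.16 CPM in the 6 classes. Around each class mean over libraries, the log2 deviations of Cry2 and Per1 had a Pearson r of 0.80 over 24 units of 1 library and 1 class, the highest of any pair of members. The units share 4 libraries, so this r describes them and carries no test.

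Arntl, the activator whose transcript opposes that of the Per genes in time, differed between libraries mainly in CA1. There it measured 119 CPM in wild type, 103 in the library labelled total knockout, 86.9 in that labelled astrocyte knockout and 109 in that labelled neuron knockout. The wild-type library was the highest and that labelled astrocyte knockout the lowest, with a log2 ratio of -0.46 (-0.56 to -0.35). Arntl in dentate granule neurons lay between 55.8 and 58.9 CPM, and the 3 ratios were 0.02, -0.06 and -0.05. In CA2 and CA3 the lowest library was that labelled total knockout, at 55.8 CPM against 70.3 CPM in wild type (-0.33, -0.52 to -0.15). Clock, its partner, had the smallest differences of any member: its highest library exceeded its lowest by at most 1.14-fold in any class. In CA1 the 4 libraries held 179, 178, 179 and 169 CPM. Clock was nevertheless below wild type in the library labelled neuron knockout in subicular or cortical neurons, by a log2 ratio of -0.18 (-0.25 to -0.10).

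Dbp, an output of the loop with a large daily swing in many tissues, was higher in CA1 of the libraries labelled astrocyte and neuron knockout. CA1 held 6.35 CPM in wild type, 7.30 in the library labelled total knockout, 10.4 in that labelled astrocyte knockout and 11.6 in that labelled neuron knockout. The log2 ratios were 0.20 (-0.23 to 0.64), 0.71 (0.32 to 1.12) and 0.87 (0.47 to 1.29). In dentate granule neurons the library labelled neuron knockout was instead the lowest, at 4.66 CPM against 5.72 CPM in wild type (-0.29, -0.78 to 0.18). Dbp shares 539 exon bases with Sphk2 on the other strand, and the sources used here do not say whether counting used strand. Sphk2 in CA1 differed from wild type by log2 ratios of -0.01, -0.03 and 0.10.

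Nr1d1 and Nr1d2, the receptors that repress Arntl, did not move together. Nr1d1 in dentate granule neurons measured 3.65 CPM in wild type, 4.84 in the library labelled total knockout, 5.65 in that labelled astrocyte knockout and 4.59 in that labelled neuron knockout. Only the ratio of the library labelled astrocyte knockout had an interval above 0 (0.63, 0.13 to 1.14). Nr1d1 shares 263 exon bases with Thra on the other strand. Thra had log2 ratios of 0.01 to 0.28 in the library labelled total knockout, -0.29 to 0.13 in that labelled astrocyte knockout and -0.24 to 0.07 in that labelled neuron knockout. Nr1d2 was the steadiest member after Clock, with 48.5, 47.5, 48.1 and 49.5 CPM in dentate granule neurons. In CA1 it was higher in the library labelled neuron knockout (50.2 against 41.9 CPM, log2 ratio 0.26, 0.09 to 0.43), while in other excitatory neurons it was lower there (63.1 against 79.4 CPM, -0.33, -0.58 to -0.09).

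**Figure D2:**
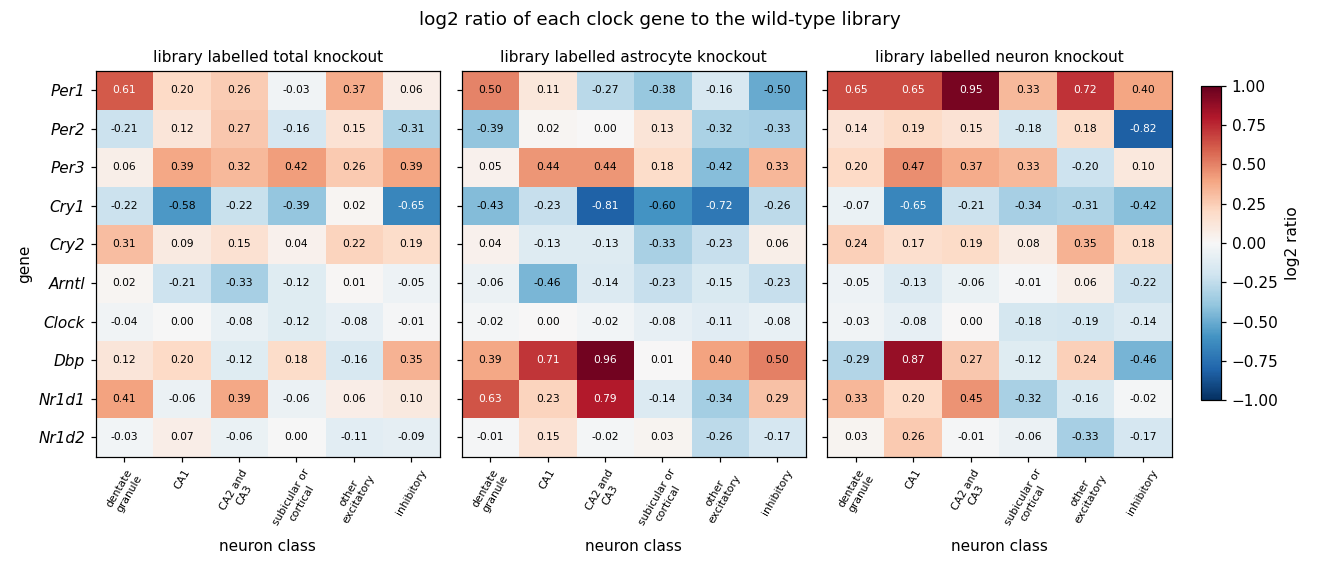
Each panel is 1 library labelled as a knockout; rows are genes, columns neuron classes, and the colour and number give the log2 ratio to the wild-type library. Per1 is above 0 in all 6 classes of the library labelled neuron knockout, where it reaches 0.95, and Cry1 is below 0 in 17 of the 18 cells.

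A gene was counted as past the fold when it differed from wild type by at least 1.5-fold and its UMIs in the class, summed over the 4 libraries, reached 100. Over the 6 classes 59 values of members could be counted, since Dbp had too few UMIs in CA2 and CA3. The library labelled total knockout had 2 past the fold (3.39%), 1 higher and 1 lower. That labelled astrocyte knockout had 6 (10.2%), 3 higher and 3 lower, and that labelled neuron knockout 7 (11.9%), 5 higher and 2 lower. Over all genes the share in single classes was 5.57% to 7.72% in the library labelled total knockout. It was 4.66% to 10.3% in that labelled astrocyte knockout and 6.13% to 8.6% in that labelled neuron knockout. Of the 5 higher members in the library labelled neuron knockout, 4 were Per1. Taken within each sex, 4 of the 6 values in the library labelled astrocyte knockout were past the fold in both sexes, but 1 of the 7 in that labelled neuron knockout, Per2 in inhibitory neurons. Each of the 4 Per1 values there was above wild type in both sexes but under the fold in one, with log2 ratios of 0.38 in male dentate granule, 0.42 in female CA1, 0.42 in male CA2 and CA3 and 0.54 in male other excitatory neurons. The 2 values of the library labelled total knockout were under the fold in male nuclei, at 0.49 for Per1 and -0.41 for Cry1. How many of all genes past the fold stayed past it in both sexes was not counted. The numbers within each sex therefore have no background. No minimum of UMIs and no interval was applied within a sex. Among the 4 values of the library labelled astrocyte knockout, Nr1d1 in CA2 and CA3 rested on low levels. Wild type held 1.65 CPM of it in male and 3.04 CPM in female nuclei there.

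These counts were read against all genes of the class. In dentate granule neurons 7.44%, 7.14% and 6.58% of 13194 genes were past the fold in the libraries labelled total, astrocyte and neuron knockout, and 1 of the 10 members was past it in each. The member was Per1 in the libraries labelled total and neuron knockout and Nr1d1 in that labelled astrocyte knockout. In CA1 the background was 7.72%, 4.97% and 6.76% of 12834 genes in the same order, and the members past the fold were 0, 1 (Dbp) and 3 (Per1, Dbp and Cry1) of 10. None of the 3 calls was past the fold in both sexes: the log2 ratios in female and male nuclei were 0.42 and 0.94 for Per1, 0.51 and 1.28 for Dbp, and -1.27 and 0.042 for Cry1. In CA2 and CA3 it was 7.22%, 4.66% and 7.02% of 11618 genes, with 0, 2 (Cry1 and Nr1d1) and 1 (Per1) of 9 members. The Nr1d1 interval in that class included 0 (0.79, -0.05 to 1.70).

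In subicular or cortical neurons the background was 6.69%, 6.17% and 6.13% of 13925 genes, with 0, 1 (Cry1) and 0 of 10 members. In other excitatory neurons it was 5.57%, 10.3% and 8.6% of 10694 genes, with 0, 1 (Cry1) and 1 (Per1) of 10. In inhibitory neurons it was 7.63%, 7.31% and 7.17% of 13007 genes, with 1 (Cry1), 0 and 1 (Per2) of 10. A count of 1 among 10 members lies near these backgrounds and says nothing particular about clock genes. The median log2 ratio of the 10 members in CA1 was 0.08, 0.07 and 0.20 in the 3 libraries, against -0.03, -0.02 and -0.02 over all genes counted. In subicular or cortical neurons the medians of the members were instead -0.05, -0.11 and -0.09, against -0.03, -0.02 and -0.01 over all genes. The lowest were -0.25 in other excitatory neurons of the library labelled astrocyte knockout and -0.15 in inhibitory neurons of that labelled neuron knockout.

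To ask about phase, the members expressed in one part of the day were set against Arntl, which is expressed in the other. The clock contrast was the mean log2 CPM of Per1, Per2, Per3, Dbp, Nr1d1 and Nr1d2 minus the log2 CPM of Arntl, so a common scaling of a library cancels in it. In CA1 the contrast was -2.90 in wild type, -2.54 in the library labelled total knockout, -2.17 in that labelled astrocyte knockout and -2.33 in that labelled neuron knockout. The wild-type library was the lowest, and the differences to it were 0.36 (0.20 to 0.53), 0.73 (0.57 to 0.89) and 0.57 (0.41 to 0.74). In CA2 and CA3 the differences were 0.51 (0.20 to 0.82), 0.45 (0.17 to 0.74) and 0.43 (0.11 to 0.74). In both pyramidal classes the wild-type library thus had the lowest contrast. In CA2 and CA3 this did not come from every gene: 4, 4 and 5 of the 6 genes set against Arntl were above wild type, and Nr1d2 was slightly below it in all 3 libraries. The Arntl intervals there included 0 in the libraries labelled astrocyte and neuron knockout, and Dbp, 1 of the 6 genes, had few UMIs.

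Outside these fields the differences were smaller. Dentate granule neurons gave 0.14 (-0.04 to 0.31), 0.25 (0.06 to 0.44) and 0.22 (0.03 to 0.42), and subicular or cortical neurons 0.18 (0.05 to 0.30), 0.20 (0.04 to 0.36) and 0.01 (-0.13 to 0.15). Other excitatory neurons gave 0.08 (-0.14 to 0.31), -0.04 (-0.37 to 0.29) and 0.02 (-0.26 to 0.29), and inhibitory neurons 0.13 (-0.13 to 0.39), 0.25 (-0.06 to 0.55) and 0.05 (-0.23 to 0.34). Of the 18 differences 17 were above 0 and 10 had an interval above 0. All 3 rows of differences share the wild-type library. Whether the difference was larger in CA1 than in other classes was not tested.

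The members did not move as one block. In CA1 5, 6 and 6 of the 6 genes set against Arntl were above wild type in the libraries labelled total, astrocyte and neuron knockout, but in subicular or cortical neurons 2, 4 and 2 were. With the mean of Arntl and Npas2, a paralog of Clock, in place of Arntl, the dentate differences became -0.058, 0.024 and -0.090, since Npas2 in these neurons was above wild type by log2 ratios of 0.41, 0.40 and 0.58. The CA1 differences with Npas2 were 0.28, 0.66 and 0.54. No time series was used here, so the contrast places no library at a time of day.

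**Figure D3:**
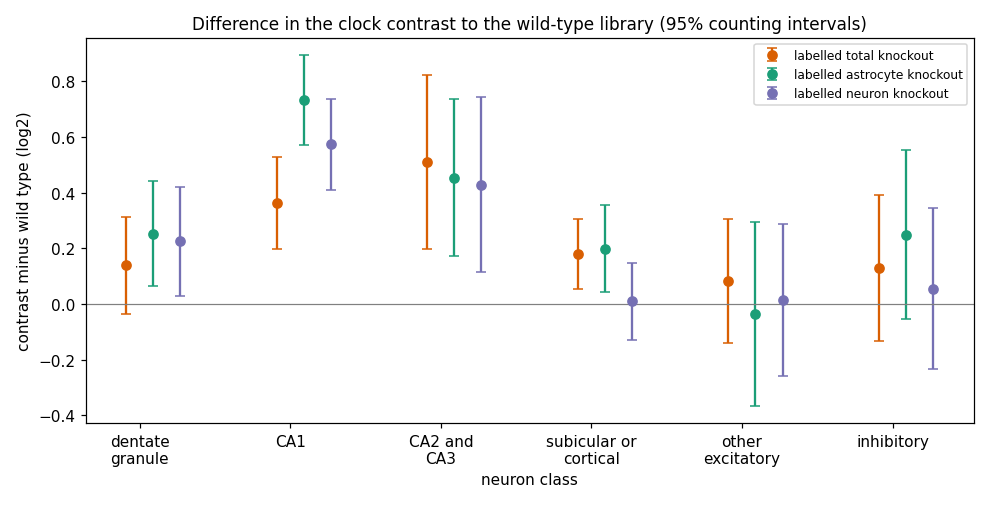
Clock contrast of each library minus that of wild type (y axis, log2) by neuron class (x axis), with 95% counting intervals. CA1 shows 0.36, 0.73 and 0.57 with all 3 intervals above 0, while all intervals of other excitatory and inhibitory neurons include 0.

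The makeup of the CA1 and dentate granule classes was measured beside this result. CA1 nuclei fell into 2 clusters, and the larger held 64.8% of wild-type CA1 nuclei and 63.9%, 62.9% and 68.3% in the libraries labelled total, astrocyte and neuron knockout. Within it the contrast differences were 0.45, 0.75 and 0.67, and within the smaller cluster 0.28, 0.81 and 0.60. All 6 of these intervals lay above 0. Dentate granule nuclei fell into a deeper cluster led by Glis3 and Dsp and a shallower one led by C1ql2. The deeper held 62.2% and 53.5% of these nuclei in wild type and in the library labelled neuron knockout, but 36.9% and 49.1% in those labelled total and astrocyte knockout. Within the deeper cluster the contrast differences were 0.02, 0.23 and 0.19 and within the shallower 0.09, 0.14 and 0.19, with every interval including 0. The dentate differences therefore did not stand clear of counting error within a cluster. Makeup differed in other classes too, where values within clusters are not given. The inhibitory cluster led by Vip held 182 of 919 inhibitory nuclei in wild type. In the libraries labelled total, astrocyte and neuron knockout it held 570 of 2630, 118 of 1024 and 121 of 1135. The median depth of CA1 nuclei was 11281 UMIs in wild type and 6620, 8040.5 and 9815 UMIs in the libraries labelled total, astrocyte and neuron knockout. With every nucleus thinned to 1000 UMIs, which leaves few UMIs per gene, the CA1 differences were 0.82, 0.72 and 1.18. These values are given without intervals. With nuclei weighted equally and not thinned, the CA1 differences were 0.36, 0.68 and 0.54. Why thinning gave larger values in the libraries labelled total and neuron knockout was not tested.

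The wild-type library and those labelled astrocyte and neuron knockout held nuclei of both sexes, which come from different animals and so give a comparison within a library. In CA1 the contrast in female minus male nuclei was 0.07 (-0.18 to 0.32) in wild type, 0.30 (0.07 to 0.53) in the library labelled astrocyte knockout and -0.41 (-0.64 to -0.17) in that labelled neuron knockout. In dentate granule neurons the values were -0.06 (-0.34 to 0.23), 0.45 (0.14 to 0.76) and -0.44 (-0.76 to -0.13), and in CA2 and CA3 -0.30 (-0.81 to 0.21), 0.37 (0.01 to 0.72) and -0.67 (-1.14 to -0.20). Female nuclei thus stood above male nuclei in one library and below them in another, in the same 3 hippocampal classes. Of the 18 pairs of library and class 6 had an interval that excluded 0. Within libraries the contrast of the sexes differed by up to 0.41 in CA1, where the libraries differed from wild type by 0.36 to 0.73. In the other hippocampal fields the sexes of a library lay farther apart than any library from wild type, by up to 0.45 against 0.14 to 0.25 in dentate granule neurons and by up to 0.67 against 0.43 to 0.51 in CA2 and CA3. The largest gap between the sexes was 0.25 in other excitatory and in inhibitory neurons, against library differences of at most 0.08 and 0.25, and 0.14 against at most 0.20 in subicular or cortical neurons.

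In the library labelled neuron knockout the male nuclei of CA1 held more Per2 (48.2 against 33.1 CPM) and more Per3 (33.6 against 25.1 CPM) than the female nuclei. Dentate granule neurons of that library showed the same for Per2, at 34.7 CPM in male and 23.2 CPM in female nuclei, with Arntl at 48.7 and 63.7 CPM. Sex and individual animals cannot be told apart in these data. In male nuclei alone, which all 4 libraries held, the CA1 differences to wild type were 0.44, 0.61 and 0.84. In female nuclei alone they were 0.84 and 0.37 for the libraries labelled astrocyte and neuron knockout. In CA2 and CA3 the measured distance to wild type also differed between the sexes, but these values rest on few UMIs and have no intervals. Female nuclei had contrasts of -3.09 in wild type and -2.17 and -2.87 in the libraries labelled astrocyte and neuron knockout. Male nuclei had -2.79, -2.54 and -2.20 in the same order. Dbp, a gene of the contrast, was only 0.83 CPM in female CA2 and CA3 nuclei of wild type. It was 4.67 CPM in those of the library labelled astrocyte knockout.

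**Figure D4:**
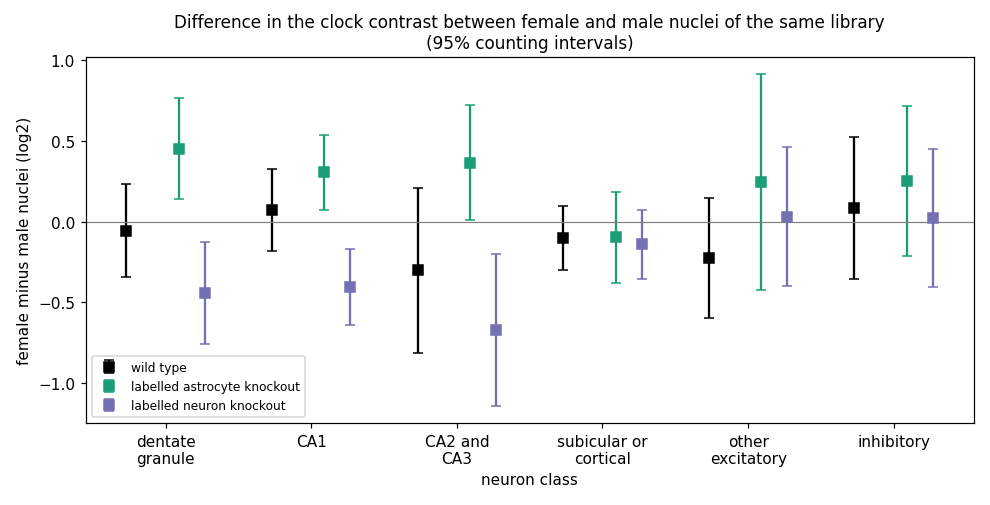
Clock contrast of female minus male nuclei of the same library (y axis, log2) by neuron class (x axis), with 95% counting intervals, for the 3 libraries that held both. In dentate granule, CA1 and CA2 and CA3 neurons the library labelled astrocyte knockout lies above 0 (0.45, 0.30 and 0.37) and that labelled neuron knockout below 0 (-0.44, -0.41 and -0.67).

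Of 23 other clock genes, 19 to 22 could be counted in each class, 123 values over the 6 classes for each library. Past the fold were 9 in the library labelled total knockout (3 higher and 6 lower), 12 in that labelled astrocyte knockout (3 and 9) and 7 in that labelled neuron knockout (5 and 2). These are 7.32%, 9.76% and 5.69% of the values. The shares over all genes of a class were 5.57% to 7.72%, 4.66% to 10.3% and 6.13% to 8.6% in the same order. The other clock genes thus lay near the background. Ciart, a repressor of the CLOCK and ARNTL dimer that peaks with the Nr1d genes in many tissues, was past the fold in dentate granule neurons of all 3 libraries, with log2 ratios of 0.98, 1.14 and 1.18. In CA1 its ratios were 0.16, 0.93 and 1.11, and the first did not reach the fold. Nfil3, which acts against Dbp at D-boxes, had ratios of -0.68, -1.45 and -0.25 in subicular or cortical neurons, and the last did not reach the fold. Rorb, an activator of Arntl that also marks a cortical layer, ranged from -1.82 to 1.04 over classes and was among the markers used to name subicular or cortical neurons. The Dbp relatives Tef and Hlf stayed within the fold in all 6 classes, as did the kinase genes Csnk1d, Csnk1e and Csnk1a1 and the ubiquitin ligase genes Btrc and Fbxw11.

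Genes of other inputs to Per1 differed between the libraries too. Summed over 10 immediate early genes, which neurons turn on with activity, the library labelled astrocyte knockout stood below wild type in all 6 classes, with log2 ratios of -0.87 in subicular or cortical, -0.82 in other excitatory, -0.60 in CA1, -0.55 in inhibitory, -0.27 in CA2 and CA3 and -0.04 in dentate granule neurons. The library labelled neuron knockout stood above wild type in all 6 classes, by 0.07 to 0.62. That labelled total knockout lay on both sides, between -0.27 and 0.23, while Per1 there was above wild type in 5 of the 6 classes. Per1 followed these sums in part. In the library labelled astrocyte knockout it was lower in subicular or cortical and inhibitory neurons, but it was higher in dentate granule neurons (0.50) and had a ratio of 0.11 in CA1, where the sum was below wild type. In that labelled neuron knockout it was higher in all 6 classes. Fos, one of the list, had log2 ratios of -2.86, -1.88, -1.57 and -1.16 in other excitatory, subicular or cortical, inhibitory and CA1 neurons of the library labelled astrocyte knockout. In CA2 and CA3 and in dentate granule neurons, where Fos had under 100 UMIs, the ratios were -1.10 and -0.0064. Fos reached the lowest ratio of the list in that library. Btg2, Egr1, Junb and Nr4a1 also had only ratios below 0 there. Arc, Dusp1, Fosb, Ier2 and Npas4 lay on both sides of wild type, with Npas4 between -0.72 and 0.40. The sum of 7 glucocorticoid-response genes stayed between -0.37 and 0.04 in all 3 libraries, and was below wild type in all 6 classes of those labelled total and neuron knockout. Single genes differed more. Ddit4 lay below wild type in all 6 classes of the libraries labelled total (-1.08 to -0.16) and astrocyte knockout (-0.69 to -0.06). So did Errfi1 in that labelled astrocyte knockout and Zbtb16 in that labelled neuron knockout. Cdkn1a, Fkbp5, Sgk1 and Tsc22d3 lay on both sides in all 3 libraries. The sum of 7 heat and cold response genes was below wild type in every class, by -0.34 to -0.79, but this sum mostly reflects the chaperone gene Hspa8 at -0.57 to -1.05. Its other members differed in direction. The chaperone gene Hsph1 lay below wild type in all 6 classes of the libraries labelled astrocyte knockout (-0.65 to -0.30) and neuron knockout (-0.44 to -0.11). Dnajb1 lay between -1.08 and -0.02 in that labelled astrocyte knockout and between -0.17 and 0.56 in that labelled total knockout. Rbm3, which is induced by cold, was above wild type in all 6 classes of that labelled astrocyte knockout, by 0.11 to 0.47. Cirbp, another cold-induced gene of the list, lay on both sides in that library, between -0.18 and 0.25. The part of these inputs in the clock genes' differences was not tested.

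Among all 17215 genes counted over the 24 units, the levels most like those of each member were found by Pearson r of log2(CPM + 1). They describe shared patterns over classes and libraries, with no test. Per1 was most like Coq10b (r = 0.94), 1700016P03Rik (r = 0.93) and Fosl2 (r = 0.92), a gene of the Fos family. Per2 and Arntl were both most like A830031A19Rik (r = 0.95 and 0.94). Per3 was most like St6galnac3 (r = 0.95), Cry1 like Mpc1 (r = 0.97), a subunit of the mitochondrial pyruvate carrier, and Cry2 less closely like Dph6 (r = 0.81). Nr1d1 was most like Igfbp6 (r = 0.95), Nr1d2 like Glrb (r = 0.97), a glycine receptor subunit, Clock like Klk8 (r = 0.93) and Dbp like Nrg1 (r = 0.91). For the clock contrast, taken as deviations from each class mean over libraries, the highest r was 0.85 for Slc35f3 and the lowest -0.88 for Pdp1, followed by -0.83 for Polr1d.

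Glial nuclei were too few in some libraries to compare. Astrocytes, the cells named in one of the knockouts, numbered 110 in wild type and 108, 31 and 53 in the libraries labelled total, astrocyte and neuron knockout. They held 60, 36, 12 and 25 UMIs of Arntl and 8, 3, 1 and 9 of Per1 in that order. Astrocyte markers summed to 13.3 to 74.2 CPM in the neuron classes of the 4 libraries, with at least 6 of 8 markers detected in each. Oligodendrocyte markers summed to 368 to 395 CPM in dentate granule neurons and to 18.3 to 97.04 CPM in the other classes. They differed between libraries, with 59.2 CPM in inhibitory neurons of wild type against 18.3 CPM in the library labelled astrocyte knockout, and 57.6 CPM in CA1 of wild type against 93.2 CPM in that labelled total knockout. In each dentate granule cluster only 1 of the 8 oligodendrocyte markers was at least 2-fold above the other nuclei. Whether the dentate sum came from oligodendrocyte RNA or from the granule neurons was not tested. Microglia markers summed to 32.3 to 55.3 CPM. The part of these markers in the clock genes' differences was not tested.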

How the data were processed

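Nuclear RNA of 4 mouse hippocampus libraries was measured, 1 for each genotype. The authors deposited whole-number UMI counts per gene and barcode with no normalization. The submitters' processing notes name Cell Ranger ARC 2.0.0 and mm10; the sources used here do not name the annotation or say whether introns and strand were used. Nuclei needed at least 500 genes and at most 5% mitochondrial UMIs, and doublets were removed with Scrublet in scanpy 1.11.5, which called 3.96%, 23.8%, 5.99% and 2.14% of nuclei in wild type and the libraries labelled total, astrocyte and neuron knockout. Between 108 and 466 barcode sequences were shared by a pair of libraries. The counts of all libraries were clustered together on 2000 variable genes without sex genes, mitochondrial genes, Mgll, clock genes or the listed genes of other inputs (30 principal components, 15 neighbours, Leiden resolution 1). Clusters were named from marker lists, with a naming rule set after the clusters were seen, and 9313 nuclei stayed unnamed. For each class the UMIs of a library were added up and scaled to CPM. Levels have exact Poisson intervals, ratios exact conditional binomial intervals and the contrast a delta-method interval. Genes past 1.5-fold over the whole class were counted with 1 UMI added to each sum. The members and lists were chosen with earlier results of these data known. The most alike genes were the 3 with the highest r for each member, of which the first or all are named, and for the contrast the highest and the 2 lowest. Other settings tried were another scaling, doublets kept, 1000 genes per nucleus, thinning, equal weights for nuclei or clusters, resolution 0.5, a marker gate, nuclei of 1 sex, other genes in the contrast and other minimums and folds. The calculations recovered known changes when tested on simulated data. Samples within a genotype were not replicated, so spread between animals is not measured.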

Additional observations from a re-analysis of the deposited data

Results flagged for a closer look

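In 3 cases a member stood on opposite sides of wild type in 2 neuron classes of the same library, with both counting intervals clear of 0; the classes farthest apart are given. The difference between the classes was itself not tested in any of them. How many of all genes met the same rule was not counted. The 3 cases therefore have no background and say nothing particular about clock genes. Per1 in the library labelled astrocyte knockout had a log2 ratio of 0.50 in dentate granule neurons and -0.50 in inhibitory neurons, a gap of 1.00. The dentate value pools clusters whose shares differed between libraries. Per1 in that library was 9.64 CPM against 8.99 in wild type in the shallower dentate cluster and 8.77 against 5.51 in the deeper. Per2 in the library labelled neuron knockout had 0.19 in CA1 and -0.82 in inhibitory neurons, a gap of 1.01. The CA1 side came from male nuclei (0.37), since in female nuclei Per2 had -0.097 there, while in inhibitory neurons it was below wild type in both sexes (-0.69 in male and -0.90 in female nuclei). Nr1d2 in the same library had 0.26 in CA1 and -0.33 in other excitatory neurons, a gap of 0.59.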

How the results depend on the processing

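Of 1706 repeats of the members' ratios to wild type under other settings, 199 changed sign. Of all repeats, 1537 stayed within the counting interval. Among ratios past 1.5-fold, 2 changed sign, namely Cry1 in CA1 of the library labelled neuron knockout, at 0.042 in male nuclei only, and Cry1 in other excitatory neurons of that labelled astrocyte knockout, at 0.34 after thinning. The contrast differences in CA1 were above 0 under every setting run. Thinning to 1000 UMIs, which leaves few UMIs per gene, moved them to 0.82 and 1.18 for the libraries labelled total and neuron knockout, and the latter was 0.84 in male and 0.37 in female nuclei. In dentate granule neurons thinning gave 0.44, 0.45 and 0.64 for the libraries labelled total, astrocyte and neuron knockout. The dentate value of the library labelled astrocyte knockout was 0.046 in male and 0.55 in female nuclei, and that labelled neuron knockout 0.48 in male and 0.097 in female nuclei. That labelled total knockout fell from 0.14 to 0.016 with a marker gate per nucleus. It was 0.056 with clusters weighted equally and 0.22 with nuclei weighted equally. Without Per1 and Per2 the dentate values of the libraries labelled total, astrocyte and neuron knockout were 0.12, 0.32 and 0.11. With Npas2 averaged with Arntl the dentate values were -0.058, 0.024 and -0.090, so the first and the last changed sign, because Npas2 was above wild type there. For the other shifts the cause was not tested. Members past the fold in the library labelled total knockout numbered 2 of 59 values, but 1 of 59 with at least 1000 genes per nucleus, 4 of 35 after thinning and 4 of 47 with a marker gate per nucleus. In that labelled astrocyte knockout they numbered 6 of 59, but 11 of 51 in female nuclei only. At 2-fold the count was 0 in each of the 3 libraries. The share of all genes past the fold was not computed under these other settings. Their counts therefore have no background and say nothing particular about clock genes. The repeat with clusters weighted equally was chosen after seeing the data. Female nuclei gave no value for the library labelled total knockout. No paired analysis was possible because each genotype has 1 library. Depth limits Dbp, Nr1d1 and Cry1 most, since their sums with the sexes pooled were as low as 14 to 27 UMIs. Sums within 1 sex were smaller still.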
